A study of Mus musculus with 4 samples.

Results

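The genes described here are the axon guidance ligands and receptors: the semaphorins, plexins, neuropilins, Slits, Robos, netrins, the netrin receptors Dcc and Unc5, the ephrins and the Eph receptors. Members were set by gene symbol alone, but the choice was made with earlier results of these data known. Of the 33696 genes in the count tables, 69 met the rule, 35 ligands and 34 receptors. By family these were 20 semaphorins, 9 plexins, 2 neuropilins, 3 Slits, 4 Robos, 4 netrins, 5 netrin receptors, 8 ephrins and 14 Eph receptors. RNA in single nuclei of cortex was counted in 2 pregnant females at embryonic day E13.5 and in 2 non-pregnant control females. All 4 mice were wildtype C57BL/6JRj, an inbred strain, and about 12 weeks old, and each gave 1 library. The pregnant mice came from timed matings. Which cortical area was taken is not stated in the labels used here.

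Guidance molecules steer growing axons by attraction or repulsion, and the same ligand can attract or repel depending on the receptor it meets. Class 3 semaphorins are secreted and mostly act through neuropilins paired with plexins, while most other semaphorins are bound to the membrane and bind plexins directly. Slits repel axons through Robo receptors. Netrins attract through Dcc and repel through Unc5 receptors. Ephrins sit on the cell surface and signal through Eph receptor kinases at points of contact. In adult cortex many of these genes stay expressed, and their products are known to act on dendritic spines, synapses, vessels and glia.

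The tables held 26816 nuclei and 423916014 unique molecular identifiers (UMIs, 1 for each captured RNA molecule). After filters on quality and doublets, 6229 and 6353 nuclei were left in the pregnant mice, against 6503 and 5949 in the non-pregnant mice. Guidance genes took 0.911% and 0.887% of UMIs in the pregnant mice, against 0.884% and 0.916% in the non-pregnant mice. Barcode sequences shared by a pair of libraries numbered 20 to 31. Nuclei were clustered without the guidance genes and named from marker lists, and 15 cell types had 50 or more nuclei in each of the 4 libraries. In each type all genes of its own marker list were detected. A sum of 1 type in 1 library held 594632 to 35768951 UMIs.

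The libraries did not hold the same mixture of nuclei. L2/3 IT neurons made up 29.9% and 37.98% in pregnant mice, against 38.7% and 39.2% in non-pregnant mice of the nuclei in the 7 excitatory types. L5 ET neurons made up 8.45% and 7.36% in pregnant mice, against 4.60% and 3.18% in non-pregnant mice. Within L2/3 IT neurons, 1 cluster with Tshz2 among its leading genes held 319 and 261 nuclei in pregnant mice, against 114 and 3 in non-pregnant mice. A further 4 clusters were almost limited to pregnant mice, with 613 and 588 nuclei there against 13 and 0 in non-pregnant mice, and were kept out of the named types.

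Levels are given in CPM (UMIs of a gene scaled to a fixed total of UMIs in the library), scaled within each cell type by TMM, a normalisation that assumes most genes do not change. IT, ET, NP and CT neurons are excitatory neurons that project within the telencephalon, outside it, nearby or to the thalamus. Pvalb, Sst, Vip and the joined class Lamp5 and Sncg are inhibitory neurons named for genes that mark them, and OPC are oligodendrocyte precursor cells. A gene was called when edgeR's quasi-likelihood test gave an adjusted p below 0.05 over all genes tested in that cell type (Benjamini-Hochberg). A called gene rose or fell in pregnant mice relative to non-pregnant mice. Fold changes are log2 values with their standard error (SE), and other errors are the standard deviation (SD).

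Over the 15 cell types, 18 of 682 gene and cell type pairs were called, 14 of them higher and 4 lower in pregnant mice. That is 2.64% of the guidance pairs, beside 0.622% of all gene and cell type pairs (0.419% higher, 0.203% lower), with no test of the difference between these shares. The set was chosen with earlier results of these data known. Receptors made up 15 of the called pairs (12 rose, 3 fell), of 355 receptor pairs tested, and ligands 3, of 327 tested. The calls lay in 14 genes and 7 cell types, of which L5 IT, L5 ET, L5/6 NP, L6 IT and L6 CT neurons held 15. By family they were 6 of 135 pairs tested for Eph receptors, 3 of 38 for Robos, 3 of 38 for Slits and 3 of 28 for neuropilins. Plexins had 2 of 93 and netrin receptors 1 of 61. Semaphorins had 0 of 199, ephrins 0 of 59 and netrins 0 of 31. Nrp2, Slit2, Robo3 and Epha6 were each called in 2 cell types. With 2 mice per group, groups that do not overlap are common by themselves: over the whole library, 22.6% of all genes were higher and 20.7% lower without overlap.

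**Figure D1:**
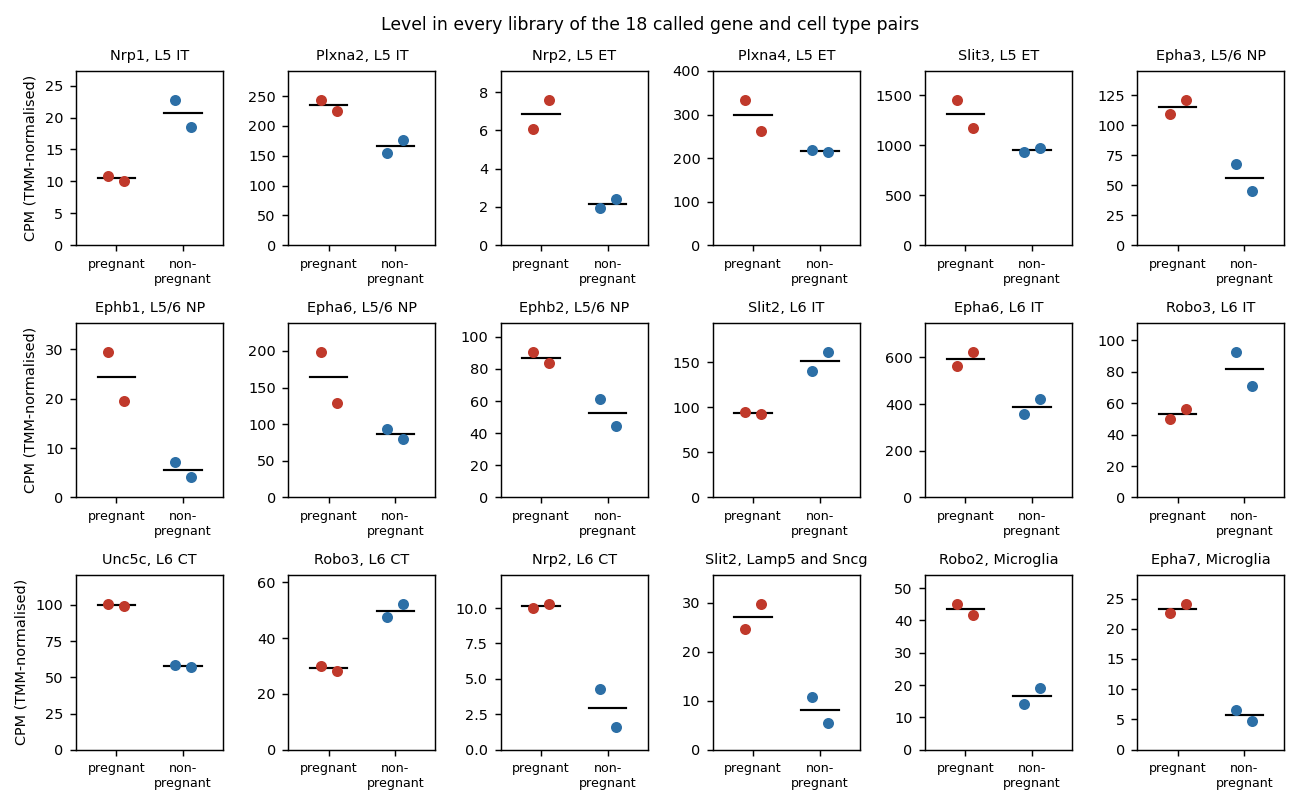
Level (CPM, vertical axis from 0, with its own scale in each panel) of the 18 called gene and cell type pairs in each library. Points are mice, pregnant on the left and non-pregnant on the right, and lines are group means. In all 18 panels the groups do not overlap, from Nrp2 in L5 ET neurons at 6.07 and 7.60 CPM in pregnant mice, against 1.92 and 2.41 CPM in non-pregnant mice, to Slit3 in the same neurons at 1455 and 1175 CPM in pregnant mice, against 931 and 977 CPM in non-pregnant mice.

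The genes called in 2 cell types are shown by their promoters, since these are the members that moved in more than 1 population. Promoters of 59 of the 69 genes were matched by symbol in the RefSeq table of build GRCm38.p6, each from 250 bases before to 50 bases after the gene's start. Letters run 5′ to 3′ on the gene's strand. Capitals mark matches, on either strand, to GGGCGG (the GC box), TATAAA (the TATA box), AGGTCA (a nuclear receptor half-site) or TGTTCT (a steroid receptor half-site).
Nrp2 (chr1:62703067-62703366, plus strand): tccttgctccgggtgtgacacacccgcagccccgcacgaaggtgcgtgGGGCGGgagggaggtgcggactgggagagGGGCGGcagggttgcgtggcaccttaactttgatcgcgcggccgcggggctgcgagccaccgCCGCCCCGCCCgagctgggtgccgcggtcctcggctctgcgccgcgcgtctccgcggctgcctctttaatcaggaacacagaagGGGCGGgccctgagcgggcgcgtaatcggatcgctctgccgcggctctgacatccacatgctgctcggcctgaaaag
Slit2 (chr5:47982905-47983204, plus strand): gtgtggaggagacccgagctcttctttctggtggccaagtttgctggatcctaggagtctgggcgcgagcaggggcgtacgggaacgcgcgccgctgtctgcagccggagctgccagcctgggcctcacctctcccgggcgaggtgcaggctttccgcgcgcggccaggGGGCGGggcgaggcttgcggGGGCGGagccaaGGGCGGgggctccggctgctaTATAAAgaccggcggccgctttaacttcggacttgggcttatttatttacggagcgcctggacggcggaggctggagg
Robo3 (chr9:37433126-37433425, minus strand): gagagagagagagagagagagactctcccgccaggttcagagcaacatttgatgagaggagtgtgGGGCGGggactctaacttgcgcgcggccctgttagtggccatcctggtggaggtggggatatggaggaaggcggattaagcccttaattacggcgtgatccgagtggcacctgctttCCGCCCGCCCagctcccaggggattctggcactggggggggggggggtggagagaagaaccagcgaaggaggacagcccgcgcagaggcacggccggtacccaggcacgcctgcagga
Epha6 (chr16:60605482-60605781, minus strand): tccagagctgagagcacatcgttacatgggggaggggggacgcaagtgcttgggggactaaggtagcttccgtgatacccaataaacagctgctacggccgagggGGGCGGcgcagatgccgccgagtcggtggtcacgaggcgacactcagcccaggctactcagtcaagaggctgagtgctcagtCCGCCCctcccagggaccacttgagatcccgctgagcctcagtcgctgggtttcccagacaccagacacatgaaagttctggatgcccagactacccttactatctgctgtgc
The GC box matched 5 times in Nrp2, 3 times in Slit2, 3 times in Robo3 and 2 times in Epha6, with 1 overlap of matches each in Nrp2 and Robo3. The TATA box matched 1 time in Slit2 and in none of the other 3 windows. The letters AGGTCA and TGTTCT were in none of the 4. Of all 32851 promoters of this length, 35.7% held GGGCGG, 13.6% TATAAA, 16.3% AGGTCA and 19.0% TGTTCT. Of the 75 promoters of guidance genes (some genes have more than 1), 70.7% held GGGCGG, 2.67% TATAAA, 14.7% AGGTCA and 10.7% TGTTCT.

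Over all 4 libraries, the guidance genes differed widely between cell types. Of the 69 genes, 48 reached 20 CPM on average in at least 1 cell type, and 29 of these had a highest type whose 4 libraries all lay above the 4 libraries of the next type. The remaining 21 genes stayed under 20 CPM in every tested type. Levels below are means over the 4 libraries (SD, n = 4). They are compared for 1 gene across cell types only, since counts from 3′ ends were not scaled to transcript length.

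**Figure D2:**
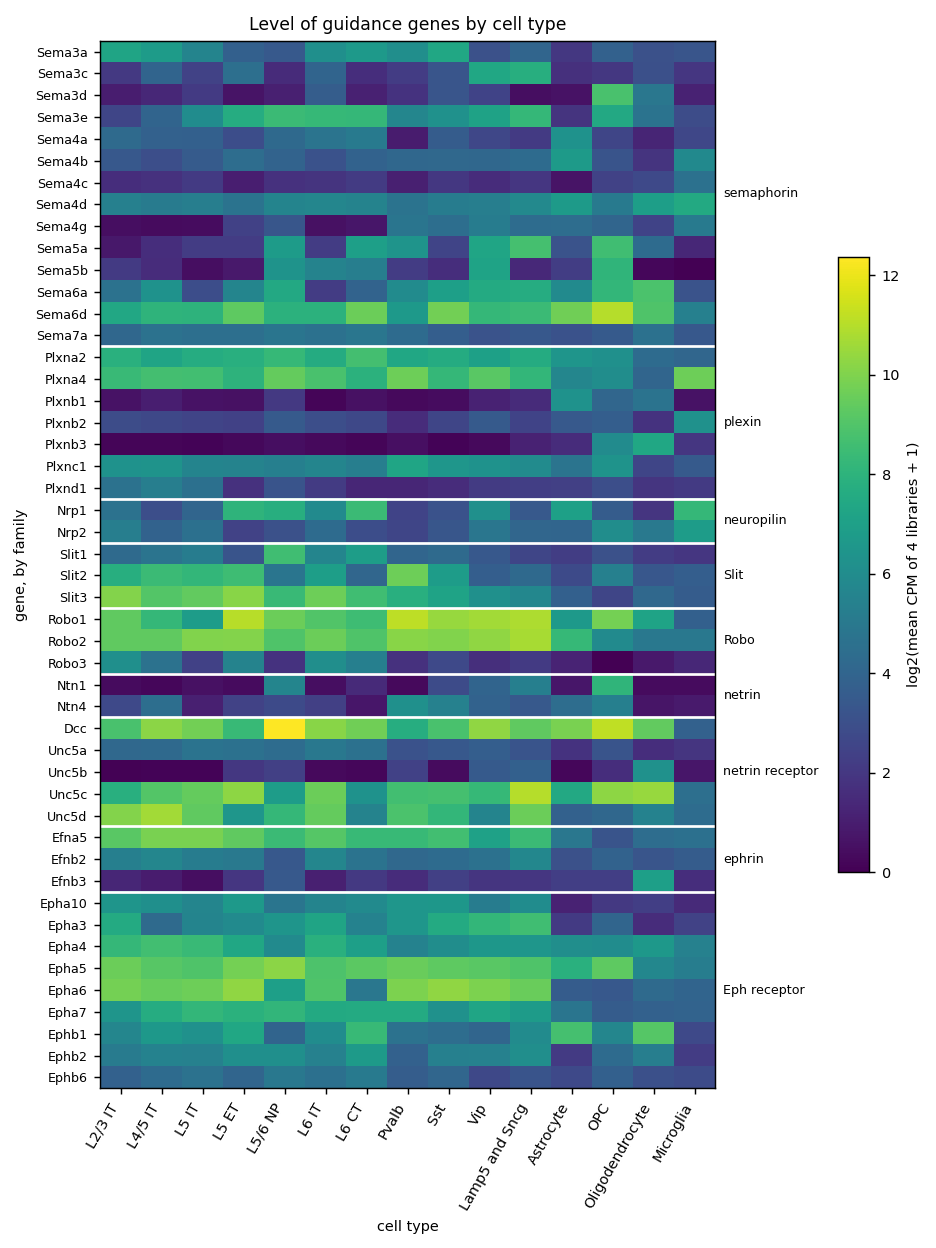
Mean level, as log2(CPM + 1) over the 4 libraries, of the 48 guidance genes that reached 20 CPM in a cell type (rows, by family) in 15 cell types (columns). Dcc in L5/6 NP neurons reaches 5265 CPM, Ntn1 and Sema3d are highest in OPC, and Efnb3, Plxnb3 and Unc5b are highest in oligodendrocytes.

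Secreted semaphorins led in different cell types. Sema3a, the ligand of the Nrp1 and plexin A receptor, was at 165 ± 13.1 CPM in Sst neurons and 146 ± 25.2 CPM in L2/3 IT neurons, which overlapped. Its co-receptor Nrp1 was low in both types, at 7.53 ± 5.22 and 23.9 ± 9.47 CPM. Nrp1 was highest in L6 CT neurons (341 ± 26.8 CPM), next in microglia (302 ± 21.5 CPM), with overlap, and in L5 ET neurons (264 ± 10.2 CPM). Plxna4, which signals for Nrp1, was at 798 ± 64.2 CPM in microglia and 792 ± 68.8 CPM in Pvalb neurons, which overlapped. Sema3c was at 215 ± 12.4 CPM in Lamp5 and Sncg neurons, above Vip neurons at 165 ± 19.9 CPM. Nrp2, a co-receptor for Sema3c and Sema3f, was highest in microglia at 114 ± 22.1 CPM and next in OPC at 65.2 ± 7.38 CPM.

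Sema3e, which binds Plxnd1 without a neuropilin, was at 339 ± 83.1 CPM in L5/6 NP, 313 ± 40.5 CPM in L6 IT and 302 ± 48.8 CPM in L6 CT neurons, without a separate leader. Plxnd1 was highest in other layers, at 38.5 ± 8.19 CPM in L4/5 IT and 24.2 ± 1.70 CPM in L2/3 IT neurons. In these types Sema3e was at 14.7 ± 5.19 and 5.08 ± 1.76 CPM. Sema3d, another secreted semaphorin, was at 450.0 ± 42.5 CPM in OPC, and its next highest type, oligodendrocytes, was at 29.1 ± 2.27 CPM. Sema3f and its receptor Plxna3 stayed low, with highest means of 5.66 ± 1.68 CPM in L6 CT neurons and 11.9 ± 2.24 CPM in OPC.

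Among membrane-bound semaphorins, several led in glia. Sema4d was highest in microglia (183 ± 10.8 CPM) and next in oligodendrocytes (119 ± 12.4 CPM), and its receptor Plxnb1 was highest in astrocytes (78.4 ± 13.2 CPM). Sema4a and Sema4b were also highest in astrocytes, at 79.1 ± 7.04 and 105 ± 6.88 CPM. Microglia had the highest Sema4c (23.7 ± 5.69 CPM) and Plxnb2 (75.8 ± 17.98 CPM), a receptor of class 4 semaphorins. Sema4g was at 35.7 ± 5.63 CPM in Vip neurons and 32.2 ± 2.54 CPM in microglia, which overlapped. Sema5b was highest in OPC (271 ± 38.1 CPM), while Sema5a was at 426 ± 37.3 CPM in Lamp5 and Sncg neurons and 386 ± 52.4 CPM in OPC, which overlapped.

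Sema6d was at 2025 ± 234 CPM in OPC, above Sst neurons at 840.3 ± 102 CPM. Its receptor Plxna1 stayed under 20 CPM, with a highest mean of 19.6 ± 2.21 CPM in Sst neurons. Sema6a was highest in oligodendrocytes at 458 ± 63.9 CPM, where its receptors Plxna2 and Plxna4 were at 18.9 ± 6.35 and 15.2 ± 6.68 CPM. Plxna2 was at 408 ± 62.9 CPM in L6 CT neurons and 307 ± 43.2 CPM in L5/6 NP neurons, which overlapped. Plxnb3 followed the oligodendrocyte lineage, with 167 ± 14.4 CPM in oligodendrocytes and 61.9 ± 14.3 CPM in OPC. Sema7a, which is held by a lipid anchor, was at 28.01 ± 5.34 CPM in L6 CT neurons and overlapped with L5/6 NP neurons, and its receptor Plxnc1 was highest in Pvalb neurons at 153 ± 6.94 CPM.

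The Slits led in different cell types. Slit1 was at 384 ± 35.1 CPM in L5/6 NP neurons, above L6 CT neurons at 119 ± 8.44 CPM. Slit2 was at 802 ± 109 CPM in Pvalb neurons, above L5 ET neurons at 362 ± 22.8 CPM. Slit3 was at 1135 ± 238 CPM in L5 ET neurons and 1080.0 ± 50.1 CPM in L2/3 IT neurons, which overlapped. In the non-pregnant mice alone the order was the other way, with Slit3 at 931 and 977 CPM in L5 ET neurons, below L2/3 IT neurons at 1133 and 1059 CPM. The receptor Robo1 was at 2213 ± 268 CPM in Pvalb and 2080.2 ± 172 CPM in L5 ET neurons, which overlapped. Robo2 was highest in Lamp5 and Sncg neurons at 1690.3 ± 176 CPM, above Vip neurons at 1255 ± 125 CPM. Robo3, a divergent Robo known for its part in midline crossing, reached 20 CPM in 5 types, led by L2/3 IT (70.5 ± 18.7 CPM) and L6 IT neurons (67.3 ± 18.9 CPM), which overlapped. Robo4, a receptor of endothelial cells, had a highest mean of 0.317 ± 0.634 CPM among the 15 types, and was at 132 ± 36.9 CPM in a small endothelial cluster of the finer clustering, from 7 to 31 UMIs per library.

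Netrin 1 was highest in OPC. Ntn1 was at 274 ± 30.4 CPM there, above L5/6 NP neurons at 48.3 ± 11.9 CPM. Its attractive receptor Dcc was at 5265 ± 413 CPM in L5/6 NP neurons and 2286 ± 158 CPM in OPC, so the top types for Dcc were also the top types for Ntn1. Unc5d, a repulsive receptor, was highest in L4/5 IT neurons at 1578 ± 204 CPM, above L2/3 IT neurons at 1059 ± 214 CPM. Ntn4, a netrin related to laminins, was highest in Pvalb neurons at 73.5 ± 9.64 CPM, and Unc5b in oligodendrocytes at 75.9 ± 10.7 CPM. Unc5c was highest in Lamp5 and Sncg neurons at 2018 ± 187 CPM, and Unc5a was at 29.8 ± 2.76 CPM in L6 IT and 25.5 ± 3.70 CPM in L5 IT neurons, which overlapped.

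Ephrin A5 was led by excitatory neurons. Efna5 was at 924 ± 26.8 CPM in L5 IT and 923 ± 53.9 CPM in L4/5 IT neurons, which overlapped. Epha4, one of its receptors, was also highest in L4/5 IT (393 ± 14.5 CPM) and L5 IT neurons (337 ± 26.6 CPM). Its other receptors peaked elsewhere or without a clear lead: Epha5 in L5/6 NP neurons (1170.4 ± 132 CPM), Epha3 in Lamp5 and Sncg neurons (374 ± 24.97 CPM) and Epha7 in L5 IT (287 ± 93.8 CPM) and L5/6 NP neurons (284 ± 51.4 CPM). Epha6 was at 1262 ± 146 CPM in L5 ET and 1249.5 ± 112 CPM in Sst neurons, which overlapped. Epha10 was at 101 ± 11.2 CPM in L5 ET and 91.1 ± 6.50 CPM in Sst neurons, which overlapped.

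Among B ephrins, Efnb3 was at 126 ± 3.17 CPM in oligodendrocytes and at 9.91 ± 1.14 CPM in the next highest type, L5/6 NP neurons. Its receptor Ephb2 was highest in L6 CT neurons at 106 ± 14.2 CPM. Efnb2 was at 51.2 ± 5.01 CPM in Lamp5 and Sncg and 50.7 ± 9.37 CPM in L6 IT neurons, which overlapped. Ephb1, a receptor of Efnb2, was at 552 ± 113 CPM in oligodendrocytes and 421 ± 32.5 CPM in astrocytes, which overlapped. Ephb6, which lacks kinase activity, was at 33.7 ± 2.41 CPM in L6 CT and 29.4 ± 5.12 CPM in L5/6 NP neurons, which overlapped.

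Summed over the whole library, Plxnd1 and Epha3 fell in pregnant mice. These were 2 of 66 genes tested, beside 1.24% of all genes (0.746% higher, 0.497% lower). Plxnd1, the Sema3e receptor, was at 15.3 and 16.4 CPM in pregnant mice, against 22.2 and 24.7 CPM in non-pregnant mice (log2 fold change -0.57, SE 0.09, adjusted p 0.0196). Epha3 was at 85.5 and 84.4 CPM in pregnant mice, against 106 and 117 CPM in non-pregnant mice (-0.40, SE 0.07, adjusted p 0.0319). In a sum over all nuclei, fewer cells of a type and less RNA per cell cannot be told apart, and Epha3 was not called when nuclei of named types alone were summed (-0.28, adjusted p 0.115). Both calls were lost without pregnant mouse 1 (adjusted p 0.503 for Plxnd1 and 0.462 for Epha3) and without pregnant mouse 2 (0.257 and 0.320). More guidance genes were called without non-pregnant mouse 1 or without non-pregnant mouse 2. The share of all genes called in those fits is not given here.

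Over all excitatory neurons, Robo3 and Plxnd1 fell, 2 of 62 genes tested beside 1.07% of all genes (0.74% higher, 0.328% lower). Robo3 was at 35.5 and 36.01 CPM in pregnant mice, against 48.5 and 59.1 CPM in non-pregnant mice (-0.59, SE 0.10, adjusted p 0.0343). Plxnd1 was at 17.5 and 19.5 CPM in pregnant mice, against 25.7 and 29.1 CPM in non-pregnant mice (-0.57, SE 0.10, adjusted p 0.0352). The groups did not overlap for either gene. With equal numbers of nuclei from each fine cluster in every library, Plxnd1 was at -0.24 and not called (adjusted p 0.335). With the pregnant-limited clusters added, Robo3 was at -0.48 and not called (adjusted p 0.0703). Neither gene was called without pregnant mouse 1 (adjusted p 0.600 for Robo3 and 0.649 for Plxnd1) or without pregnant mouse 2 (0.364 and 0.277). Leaving out non-pregnant mouse 1 or non-pregnant mouse 2 gave more calls of guidance genes, and the share of all genes called in those fits is not given here.

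Over all inhibitory neurons edgeR called 0 of 57 genes, beside 0.258% of all genes. An unadjusted p below 0.05 was found for 7 of them, and the share of all genes at that threshold is not given here. DESeq2 also called 0, while edgeR made calls without non-pregnant mouse 1. The share of all genes called in that fit is not given here. The pregnancy effect of 3 semaphorins differed between excitatory and inhibitory neurons when that difference was tested (edgeR interaction with the mouse as block), 3 of 63 genes beside 0.968% of all genes. The effect was more positive in excitatory neurons by 0.90 for Sema3c (adjusted p 0.00113), 0.69 for Sema3e (adjusted p 0.00234) and 1.18 for Sema4g (adjusted p 0.0139). Sema4g was low in excitatory types, with means from 0.286 CPM in L4/5 IT to 8.75 CPM in L5/6 NP neurons. Sema3e in excitatory neurons was at 116 and 85.6 CPM in pregnant mice, against 59.96 and 62.1 CPM in non-pregnant mice, without a call there (0.72, adjusted p 0.105). Fewer guidance genes differed without pregnant mouse 1, and more without non-pregnant mouse 1 or without non-pregnant mouse 2. The share of all genes that differed in those fits is not given here. The make-up of the excitatory sum differed between the groups, as the shares above show, and its part in these differences was not tested.

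In L5 ET neurons, which project to targets such as brainstem and spinal cord, 3 of 53 guidance genes tested were called and all 3 rose, beside 3.27% of all genes (2.03% higher, 1.24% lower). Nrp2, the semaphorin co-receptor, was at 6.07 and 7.60 CPM in pregnant mice, against 1.92 and 2.41 CPM in non-pregnant mice (1.65, SE 0.33, adjusted p 0.00405). These values rest on 67 and 74 UMIs in pregnant mice, against 11 and 12 in non-pregnant mice, and L5 ET neurons had the lowest mean of Nrp2 among the 15 types. Plxna4, a plexin that signals for neuropilins, was at 334 and 263 CPM in pregnant mice, against 219 and 213 CPM in non-pregnant mice (0.47, SE 0.11, adjusted p 0.0219). Slit3, a ligand of Robo receptors, was at 1455 and 1175 CPM in pregnant mice, against 931 and 977 CPM in non-pregnant mice (0.46, SE 0.12, adjusted p 0.0312). Both pregnant mice lay above both non-pregnant mice for each gene.

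All 3 effects in L5 ET neurons were more positive than in the sum of the other excitatory types, by 1.44 for Nrp2 (adjusted p 0.00520), 0.61 for Plxna4 (adjusted p 9.37e-06) and 0.49 for Slit3 (adjusted p 7.84e-04). Here and below, the other types of a class were compared as 1 sum and not type by type. The make-up of that sum differed between the groups, and its part was not tested. Nrp2 stayed called without each mouse in turn. Without pregnant mouse 1, Plxna4 was at 0.29 (adjusted p 0.437) and Slit3 at 0.30 (adjusted p 0.425), and neither was called. More guidance genes were called in L5 ET neurons without non-pregnant mouse 1 or without non-pregnant mouse 2. The share of all genes called in those fits is not given here. Slit3 was also not called without non-pregnant mouse 1 (adjusted p 0.144). With equal numbers of nuclei from each fine cluster, 1 of 50 guidance genes tested was called in L5 ET neurons. Markers of L5/6 NP neurons, a list that holds Tshz2, summed in L5 ET neurons to 509 and 661 CPM in pregnant mice, against 191 and 264 CPM in non-pregnant mice, with all 7 detected. Tshz2 alone was at 365 and 503 CPM in pregnant mice, against 62.6 and 86.4 CPM in non-pregnant mice. It made up most of the difference between the groups in this sum. The part of these markers in the results was not tested.

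In L5 IT neurons 1 gene fell and 1 rose, of 52 tested, beside 1.13% of all genes (0.667% higher, 0.462% lower). Nrp1, the co-receptor for Sema3a, was at 10.9 and 10.1 CPM in pregnant mice, against 22.8 and 18.6 CPM in non-pregnant mice (-0.98, SE 0.19, adjusted p 0.0145). In L6 CT neurons, where Nrp1 is highest, it was at 342 and 346 CPM in pregnant mice, against 370.3 and 305 CPM in non-pregnant mice, which overlapped. Plxna2, a receptor of Sema6a, was at 244 and 225 CPM in pregnant mice, against 155 and 176 CPM in non-pregnant mice (0.50, SE 0.10, adjusted p 0.0199). Both effects differed from that in the sum of the other excitatory types, by -1.60 for Nrp1 (adjusted p 4.77e-08) and 0.26 for Plxna2 (adjusted p 0.0460). Among excitatory types Nrp1 ran from a mean of 6.92 CPM in L4/5 IT to 341 CPM in L6 CT neurons. The make-up of the sum differed between the groups, and its part in the difference was not tested. Neither was called without pregnant mouse 1 (adjusted p 0.363 for Nrp1 and 0.430 for Plxna2) or pregnant mouse 2 (0.299 and 0.181). More guidance genes were called in L5 IT neurons without non-pregnant mouse 1 or without non-pregnant mouse 2. The share of all genes called in those fits is not given here. Plxna2 was also not called without non-pregnant mouse 1 (adjusted p 0.0606).

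In L5/6 NP neurons 4 of 45 genes tested were called, all 4 of them Eph receptors that rose, beside 1.41% of all genes (0.988% higher, 0.419% lower). Epha3 was at 109 and 121 CPM in pregnant mice, against 67.5 and 45.3 CPM in non-pregnant mice (1.01, SE 0.18, adjusted p 6.26e-04). Ephb1 was at 29.5 and 19.5 CPM in pregnant mice, against 7.14 and 4.11 CPM in non-pregnant mice (2.07, SE 0.40, adjusted p 0.00233), from 57 and 36 UMIs in pregnant mice, against 9 and 4 in non-pregnant mice. Eph receptors of the A and B groups mostly bind ephrins of the same letter, and both groups were among the 4. Epha6 was at 199 and 129 CPM in pregnant mice, against 92.8 and 79.2 CPM in non-pregnant mice (0.92, SE 0.19, adjusted p 0.0107). Ephb2 was at 90.5 and 83.5 CPM in pregnant mice, against 61.1 and 44.2 CPM in non-pregnant mice (0.70, SE 0.19, adjusted p 0.0413). The groups did not overlap for any of the 4, and the pregnant mice stood farthest apart for Epha6.

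All 4 effects were more positive than in the other excitatory types, by 1.36 for Epha3 (adjusted p 4.55e-13), 1.89 for Ephb1 (adjusted p 5.06e-05), 0.80 for Ephb2 (adjusted p 0.00184) and 0.83 for Epha6 (adjusted p 0.00597). Epha7, another Eph receptor, differed the other way, by -0.77 (adjusted p 1.33e-07). It was at 254 and 229.8 CPM in pregnant mice, against 308 and 344 CPM in non-pregnant mice, without a call in L5/6 NP neurons themselves (-0.42, adjusted p 0.0859).

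Epha3 kept its call without each mouse in turn. Without pregnant mouse 1, Ephb1 (adjusted p 0.118), Epha6 (0.58, adjusted p 0.280) and Ephb2 (adjusted p 0.351) were not called. Ephb2 was also not called without pregnant mouse 2 (adjusted p 0.105) or non-pregnant mouse 2 (adjusted p 0.390). When the pregnant-limited clusters were added to the types, Epha3 was at 0.23 (adjusted p 0.548), Ephb2 at 0.23 (adjusted p 0.512) and Epha6 at 2.12 (adjusted p 0.140), none of them called. With those clusters added, 17 of 51 guidance genes were called in L5/6 NP neurons, 9 higher and 8 lower. The share of all genes called in that setting is not given here. More guidance genes were called in L5/6 NP neurons without non-pregnant mouse 1, and the same number without non-pregnant mouse 2. For those fits too, the share of all genes called is not given here. With no doublet filter Ephb1 was at 1.15 and not called (adjusted p 0.0811). With equal numbers of nuclei from each fine cluster, 1 of 35 guidance genes tested was called in L5/6 NP neurons, and DESeq2 called 2. Markers of L5/6 NP neurons summed in these neurons to 5853 and 5940.4 CPM in pregnant mice, against 4762 and 5059 CPM in non-pregnant mice, with all 7 detected and 2 called higher, and their part in these results was not tested.

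In L6 IT neurons 2 genes fell and 1 rose, of 52 tested, beside 0.596% of all genes (0.413% higher, 0.183% lower). Slit2 was at 95.2 and 92.3 CPM in pregnant mice, against 141 and 161 CPM in non-pregnant mice (-0.69, SE 0.11, adjusted p 0.00389), and it was called under all 13 alternative settings. Epha6 was at 563 and 624 CPM in pregnant mice, against 357 and 422 CPM in non-pregnant mice (0.60, SE 0.11, adjusted p 0.0122), and it was called under 12 of 13, the exception being without pregnant mouse 2 (0.53, adjusted p 0.0587). Robo3 was at 49.9 and 55.97 CPM in pregnant mice, against 92.5 and 70.7 CPM in non-pregnant mice (-0.62, SE 0.14, adjusted p 0.0480). The groups did not overlap for any of the 3. Robo3 was not called without pregnant mouse 1 (adjusted p 0.509), pregnant mouse 2 (0.0867) or non-pregnant mouse 1 (0.0839). The effect on Epha6 differed from that in the other excitatory types (0.54, adjusted p 3.96e-05), while no difference passed the test for Slit2 (-0.28, adjusted p 0.262) or Robo3 (-0.02, adjusted p 1.00). More guidance genes were called in L6 IT neurons without non-pregnant mouse 1 or without non-pregnant mouse 2. The share of all genes called in those fits is not given here. Rorb, a marker of L4/5 IT neurons, rose in L6 IT neurons, at 70.4 and 57.7 CPM in pregnant mice, against 40.7 and 28.8 CPM in non-pregnant mice (0.91, adjusted p 0.0140). Tshz2, a marker of L5/6 NP neurons, rose there too, at 8.19 and 8.50 CPM in pregnant mice, against 0.573 and 0.631 CPM in non-pregnant mice (3.71, adjusted p 5.72e-04). The 7 markers of L4/5 IT neurons summed in L6 IT neurons to 1065 and 979.7 CPM in pregnant mice, against 871 and 1117 CPM in non-pregnant mice, and the 7 of L5/6 NP neurons to 20.3 and 17.3 CPM in pregnant mice, against 11.2 and 4.63 CPM in non-pregnant mice, all detected. Tshz2 made up most of the difference between the groups in the sum of L5/6 NP markers. The part of these markers in the results was not tested.

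In L6 CT neurons 2 receptors rose and 1 fell, of 54 genes tested, beside 0.791% of all genes (0.57% higher, 0.221% lower). Unc5c, a repulsive netrin receptor, was at 101 and 99.6 CPM in pregnant mice, against 58.7 and 56.99 CPM in non-pregnant mice (0.79, SE 0.10, adjusted p 0.00850). Robo3 was at 30.1 and 28.3 CPM in pregnant mice, against 47.4 and 52.2 CPM in non-pregnant mice (-0.77, SE 0.13, adjusted p 0.0221). The mice of a group lay close together for both genes. Nrp2 was at 10.03 and 10.3 CPM in pregnant mice, against 4.26 and 1.61 CPM in non-pregnant mice (1.90, SE 0.37, adjusted p 0.0494), from 71 and 61 UMIs in pregnant mice, against 17 and 10 in non-pregnant mice, and the non-pregnant mice differed from each other more than the pregnant mice did. The effect on Nrp2 differed from that in the other excitatory types (1.75, adjusted p 0.00138), and no difference passed the test for Unc5c (0.41, adjusted p 0.148) or Robo3 (-0.17, adjusted p 0.813).

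All 3 calls in L6 CT neurons were lost without pregnant mouse 1 (adjusted p 0.351 for Unc5c, 0.496 for Robo3 and 0.686 for Nrp2) and without pregnant mouse 2 (0.239, 0.510 and 0.557). Without non-pregnant mouse 1 Nrp2 was at 2.64, and without non-pregnant mouse 2 at 1.25, called in both cases. Leaving out non-pregnant mouse 1 or non-pregnant mouse 2 gave more calls of guidance genes in L6 CT neurons, in both directions. The share of all genes called in those fits is not given here. Clustering with the guidance genes included gave 0.28 for Unc5c (adjusted p 0.375) and 0.82 for Nrp2 (adjusted p 0.194), neither called. Using no doublet filter gave 0.15 for Unc5c (adjusted p 0.641) and 0.72 for Nrp2 (adjusted p 0.146). Markers of L5/6 NP neurons summed in L6 CT neurons to 284 and 211 CPM in pregnant mice, against 66.5 and 15.3 CPM in non-pregnant mice, with all 7 detected. Of these, Tshz2 alone was at 198 and 163 CPM in pregnant mice, against 44.7 and 6.92 CPM in non-pregnant mice. It made up most of the difference between the groups in this sum. The part of these markers in the results was not tested.

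Outside L6 IT and L6 CT neurons Robo3 reached 20 CPM in 3 types and was called in none of these 3. In L2/3 IT neurons it was at 58.6 and 54.7 CPM in pregnant mice, against 72.5 and 96.1 CPM in non-pregnant mice (-0.57, adjusted p 0.303). In L4/5 IT neurons it was at 20.1 and 14.99 CPM in pregnant mice, against 29.9 and 31.3 CPM in non-pregnant mice (-0.80, adjusted p 0.109). The pregnant mice lay below the non-pregnant mice in both types. In L5 ET neurons the groups overlapped, at 39.96 and 48.97 CPM in pregnant mice, against 44.8 and 48.2 CPM in non-pregnant mice (-0.07, adjusted p 0.862), and the effect there differed from that in the other excitatory types (0.62, adjusted p 0.00308).

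**Figure D3:**
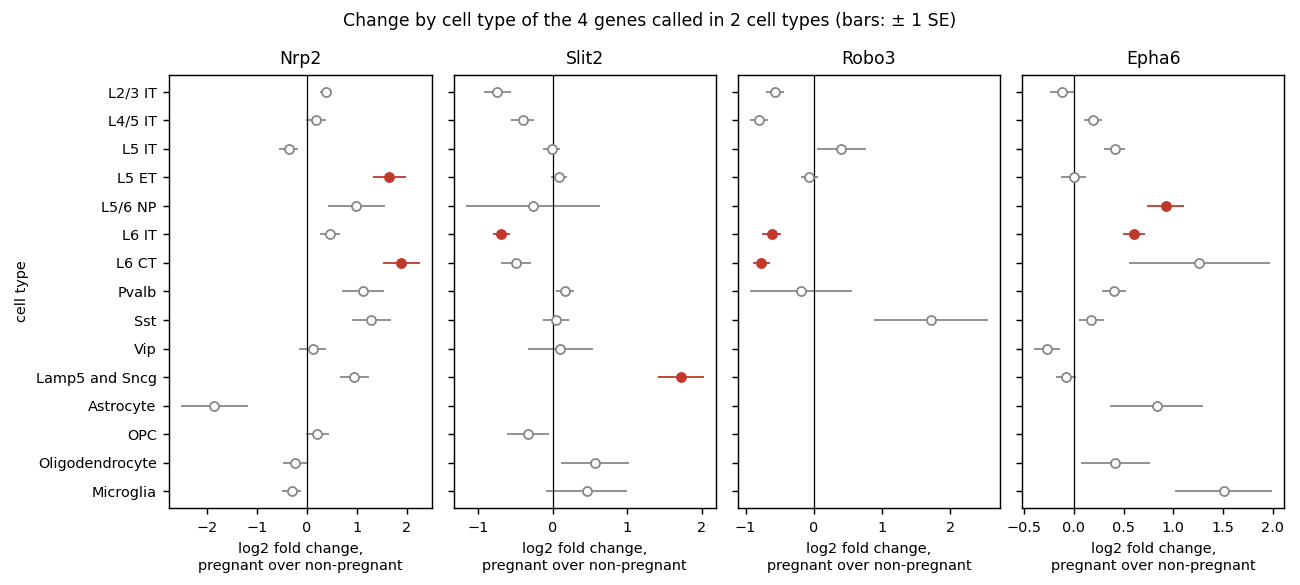
Log2 fold change, pregnant over non-pregnant mice, with bars of 1 SE, of the 4 genes called in 2 cell types, in each cell type where the gene was tested. Nrp2 was called higher in L5 ET (1.65) and L6 CT neurons (1.90) and Epha6 in L5/6 NP (0.92) and L6 IT neurons (0.60), Robo3 lower in L6 IT (-0.62) and L6 CT neurons (-0.77), and Slit2 lower in L6 IT (-0.69) and higher in Lamp5 and Sncg neurons (1.72).

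Among inhibitory types the single call was Slit2 in Lamp5 and Sncg neurons, 1 of 46 genes tested beside 0.136% of all genes (0.136% higher, 0.0% lower). Slit2 was at 24.6 and 29.8 CPM in pregnant mice, against 10.8 and 5.54 CPM in non-pregnant mice (1.72, SE 0.31, adjusted p 0.0481), from 45 and 63 UMIs in pregnant mice, against 23 and 11 in non-pregnant mice. More guidance genes were called in Lamp5 and Sncg neurons without non-pregnant mouse 1 or without non-pregnant mouse 2. The share of all genes called in those fits is not given here. The Slit2 call held without each mouse in turn, and DESeq2 did not make it (adjusted p 1.00). This joined class was not tested with clustering at resolution 2 or with no doublet filter, so the call could not be followed there. A crossed pairing of the replicate numbers, chosen after seeing the data, called 0 of 46 guidance genes in it. In Pvalb neurons, where Slit2 is highest, it was at 957 and 737 CPM in pregnant mice, against 716 and 799 CPM in non-pregnant mice, which overlapped. The 7 markers of Pvalb neurons summed in Lamp5 and Sncg neurons to 253 and 269 CPM in pregnant mice, against 272 and 298 CPM in non-pregnant mice, with all 7 detected and none called. The difference of the Slit2 effect from the other inhibitory types did not pass the test (1.62, adjusted p 0.0993).

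In microglia, the resident immune cells of the brain, Robo2 and Epha7 rose, 2 of 22 genes tested beside 0.716% of all genes (0.685% higher, 0.0316% lower). Robo2 was at 45.1 and 41.8 CPM in pregnant mice, against 14.3 and 18.98 CPM in non-pregnant mice (1.36, SE 0.35, adjusted p 0.0418), from 26 and 33 UMIs in pregnant mice, against 13 and 20 in non-pregnant mice. Epha7 was at 22.5 and 24.1 CPM in pregnant mice, against 6.60 and 4.75 CPM in non-pregnant mice (2.03, SE 0.52, adjusted p 0.0423), from 13 and 19 UMIs in pregnant mice, against 6 and 5 in non-pregnant mice. Both genes are far higher in neurons, with means of 1690.3 CPM in Lamp5 and Sncg neurons for Robo2 and 287 CPM in L5 IT neurons for Epha7. Neuronal markers were present in the microglia: the 7 excitatory markers summed to 220.1 and 205 CPM in pregnant mice, against 188 and 126 CPM in non-pregnant mice. The 6 inhibitory markers summed to 64.1 and 79.8 CPM in pregnant mice, against 43.98 and 22.8 CPM in non-pregnant mice. All of these markers were detected, none was called, and their part in the result was not tested. The difference of the effect from the sum of astrocytes, OPC and oligodendrocytes was tested by edgeR interaction. It did not pass for Robo2 (1.27, adjusted p 0.0959) or Epha7 (1.46, adjusted p 0.402).

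The 8 microglial markers summed to 9058 and 8946 CPM in pregnant mice, against 8889 and 10043 CPM in non-pregnant mice. Robo2 was not called without pregnant mouse 1 (adjusted p 0.218), pregnant mouse 2 (0.212), non-pregnant mouse 1 (0.155) or non-pregnant mouse 2 (0.127). Epha7 was not called without pregnant mouse 1 (adjusted p 0.299), pregnant mouse 2 (0.631) or non-pregnant mouse 2 (0.320). Neither gene was called by edgeR with DESeq2 size factors or with clustering at resolution 2. DESeq2 called neither gene (adjusted p 1.00 for both).

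In the other 8 cell types edgeR called 0 guidance genes. Of all genes, 0.0479% were called in L2/3 IT, 0.081% in L4/5 IT, 0.157% in Pvalb, 0.0169% in Sst and 0.0305% in Vip neurons, 0.313% in astrocytes, 0.146% in OPC and 0.246% in oligodendrocytes. Guidance genes with an unadjusted p below 0.05 numbered 13 of 59 in L2/3 IT, 11 of 58 in L4/5 IT, 9 of 49 in Pvalb, 6 of 50 in Sst and 3 of 44 in Vip neurons, 4 of 32 in astrocytes, 3 of 31 in OPC and 7 of 35 in oligodendrocytes. The share of all genes at that threshold is not given here, and the shares above are at the adjusted threshold, so the 2 cannot be compared. DESeq2 called 4 guidance genes in L2/3 IT neurons, 2 in L4/5 IT neurons and 0 in each of the other 6. With edgeR and no doublet filter, 18 were called in oligodendrocytes (13 rose, 5 fell), and with the guidance genes kept for clustering 6 in OPC. The share of all genes called in these settings is not given here. Without non-pregnant mouse 1, guidance genes were called in each of the 8 types except OPC. Without non-pregnant mouse 2, they were called in L2/3 IT, L4/5 IT and Pvalb neurons and in astrocytes. For those fits too, the share of all genes called is not given here. Of the 69 guidance genes, 55 were called in no cell type, and 49 of these were tested in at least 1. Over their 492 pairs the smallest adjusted p was 0.0507, and where the mean reached 20 CPM (255 pairs) the log2 fold changes ran from -0.93 to 1.44. Dcc, the attractive netrin receptor, chosen after its values were seen, lay just outside the threshold in Pvalb neurons, at 160.3 and 180.0 CPM in pregnant mice, against 222 and 264 CPM in non-pregnant mice (-0.52, adjusted p 0.0507). In L5/6 NP neurons, its highest type, the groups overlapped at 4907 and 5211 CPM in pregnant mice, against 5087 and 5856 CPM in non-pregnant mice (-0.11, adjusted p 0.840).

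**Figure D4:**
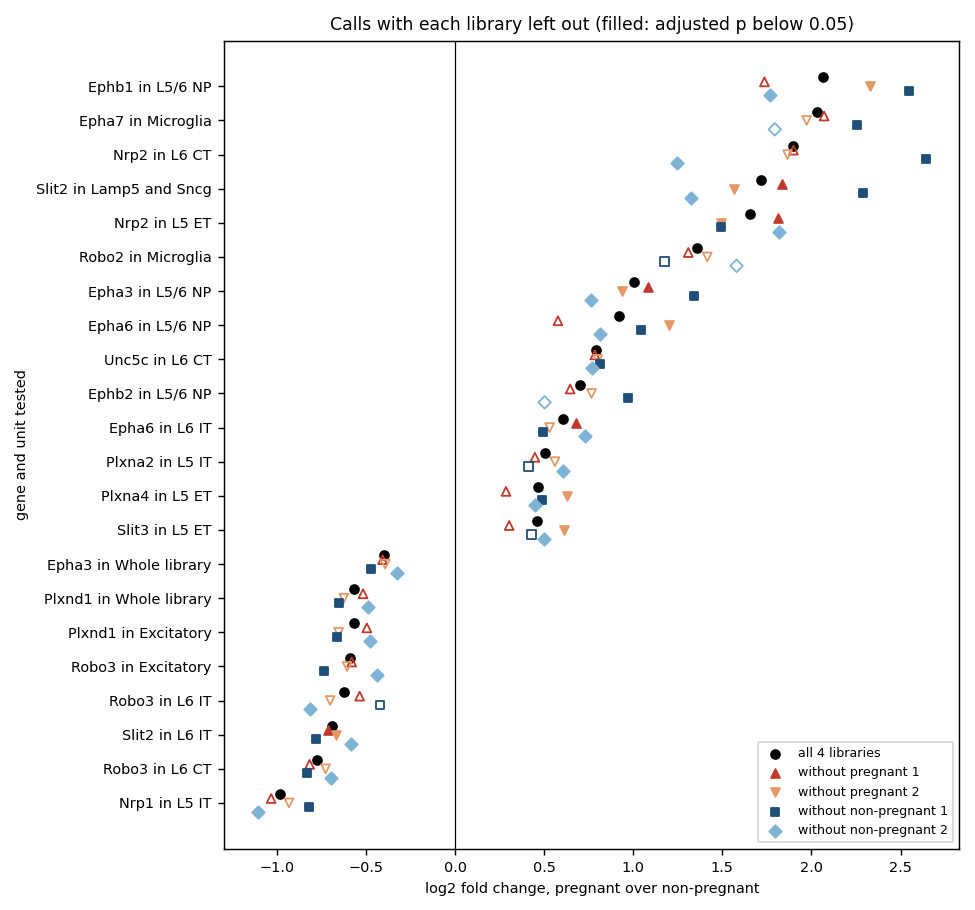
Log2 fold change, pregnant over non-pregnant mice, of the 22 called results (18 pairs and the 4 calls in summed nuclei), with all 4 libraries and with each library left out; filled symbols are called. Most of the 22 calls are lost without pregnant mouse 1, and most without pregnant mouse 2. The groups do not overlap for any of the 22, so leaving out 1 mouse could hardly change a sign.

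The pregnancy effect of a gene in a cell type was also compared with that in the other tested types of its class, with the mouse as block. Of 869 guidance pairs 58 differed (6.67%), 28 more positive and 30 more negative in the type, beside 0.945% of all gene and cell type pairs. By type, with the share of all genes in brackets, they were 11 of 61 in L5 IT (1.67%), 11 of 61 in L5 ET (2.81%), 10 of 61 in L2/3 IT (1.77%), 9 of 63 in L5/6 NP (1.59%), 7 of 61 in L6 CT (0.957%), 4 of 61 in L4/5 IT (1.47%), 4 of 62 in L6 IT (0.711%), 1 of 55 in Pvalb (0.168%) neurons and 1 of 53 in oligodendrocytes (0.238%). Nrp1 was more negative than in the other types in 4 of them, by -1.60 in L5 IT, -1.14 in L6 IT, -0.60 in L6 CT and -0.47 in L5 ET neurons. Sema3e, the ligand of Plxnd1, was more negative in 3, by -1.16 in L5/6 NP, -0.98 in L5 ET and -0.89 in L5 IT neurons. The sum of all excitatory neurons was at 0.59 for Nrp1 (adjusted p 0.144) and 0.72 for Sema3e (adjusted p 0.105). The other types of a class enter as a sum whose make-up differed between the groups, as the shares of L2/3 IT and L5 ET neurons show, and its part in these differences was not tested. Fewer guidance pairs differed without pregnant mouse 1, and more without non-pregnant mouse 1. The share of all pairs that differed in those fits is not given here.

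**Figure D5:**
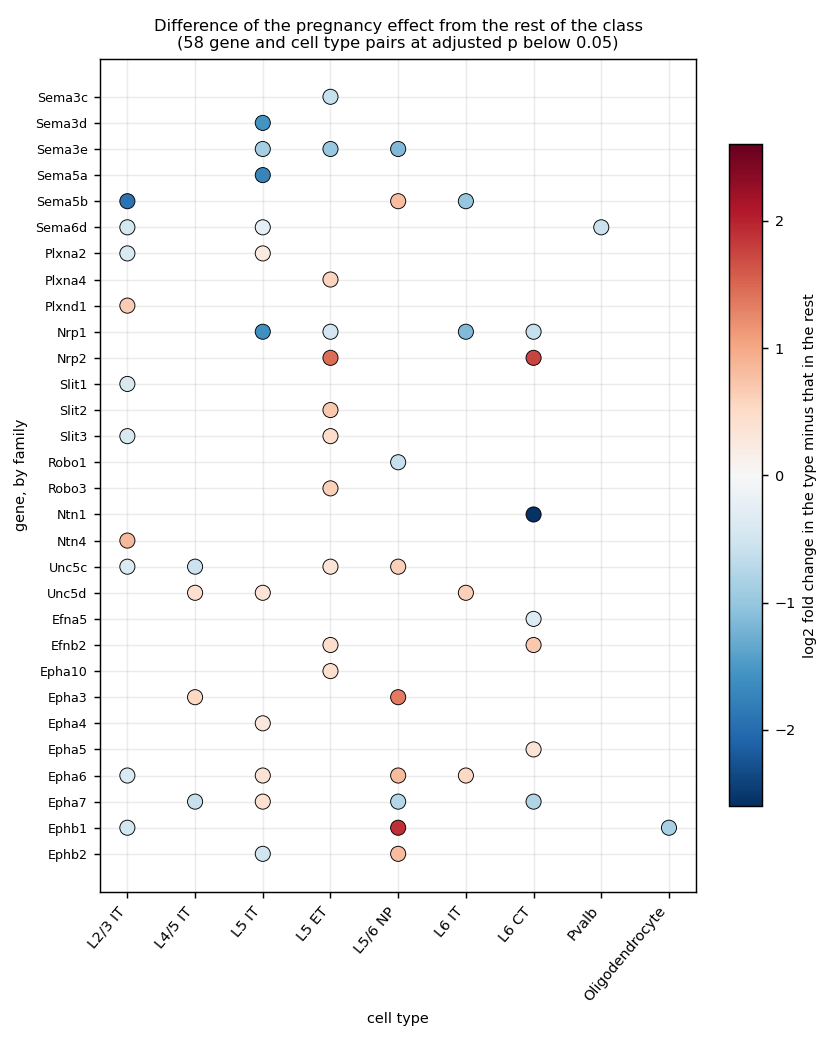
Differences of the pregnancy effect from the rest of the class for the 58 gene and cell type pairs at adjusted p below 0.05 (rows are genes, columns cell types). Colour gives the log2 fold change in the type minus that in the rest, from -2.56 for Ntn1 in L6 CT neurons to 1.89 for Ephb1 in L5/6 NP neurons. Ntn1 was low in L6 CT neurons, at 1.80 ± 1.33 CPM, and among excitatory types was highest in L5/6 NP neurons, at 48.3 ± 11.9 CPM.

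Other genes of the pathway, a list of 75 adaptors, co-receptors and cytoskeletal regulators, had 9 calls in L5 ET neurons, the type with the highest share of all genes called. There 7 of 70 tested rose (Abl1, Ntng1, Dpysl5, Grip1, Srgap1, Flrt2 and Tiam1) and 2 fell (Flrt3 and Pak1), beside 3.27% of all genes (2.03% higher, 1.24% lower). Over all excitatory neurons 3 of 73 rose, beside 1.07% of all genes called, and over all inhibitory neurons 1 of 72 fell, beside 0.258%. Of 53 to 69 tested per type, 1 gene each rose in L5 IT, L6 IT, L6 CT, Sst, Lamp5 and Sncg neurons and microglia. Dpysl5, a collapsin response mediator, was at 24.01 and 24.1 CPM in pregnant mice, against 17.1 and 13.3 CPM in non-pregnant mice in L5 ET neurons (0.65, adjusted p 0.0197), and it also rose in L5 IT neurons (1.61, adjusted p 0.0485) and over all excitatory neurons (1.13, adjusted p 0.0405). Grip1, a scaffold that binds ephrins, was at 418 and 386 CPM in pregnant mice, against 220.2 and 230.2 CPM in non-pregnant mice in L5 ET neurons (0.84, adjusted p 2.06e-05) and rose over all excitatory neurons (0.45, adjusted p 0.0456). Srgap1, which binds Robo receptors, rose in L5 ET neurons (0.54, adjusted p 0.0290) and over all excitatory neurons (0.77, adjusted p 0.0206). Ntng1, a netrin-related membrane protein, rose in L5 ET (0.48, adjusted p 0.0109) and in Lamp5 and Sncg neurons (2.57, adjusted p 0.0278) and fell over all inhibitory neurons (-0.84, adjusted p 0.00346).

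Of a list of 22 genes known to differ between areas and layers of cortex, 9 were called in at least 1 of the 18 sums tested, at 0 to 3 per sum, and 13 in none. L5 ET neurons had 3 of 17 tested, beside 3.27% of all genes, L6 IT neurons 3 of 14, beside 0.596%, and the whole library 2 of 22, beside 1.24%. No gene of the list was called in L2/3 IT, Pvalb, Sst, or Lamp5 and Sncg neurons or in OPC. Tshz2, a transcription factor gene, was called higher in 9 of the sums tested, and in L5 ET neurons it was at 365 and 503 CPM in pregnant mice, against 62.6 and 86.4 CPM in non-pregnant mice (2.55, adjusted p 0.0117). Among these sums were astrocytes, at 17.5 and 35.98 CPM in pregnant mice, against 3.75 and 4.23 CPM in non-pregnant mice, and oligodendrocytes, at 16.5 and 19.7 CPM in pregnant mice, against 3.27 and 1.65 CPM in non-pregnant mice. Without a call, Tshz2 in L2/3 IT neurons was at 216 and 134 CPM in pregnant mice, against 16.3 and 1.89 CPM in non-pregnant mice. In L6 CT neurons it was at 198 and 163 CPM, against 44.7 and 6.92 CPM. In L5 IT neurons it was at 49.8 and 84.8 CPM, against 13.3 and 2.22 CPM. The groups overlapped for Tshz2 in Lamp5 and Sncg neurons, OPC and microglia. Etv1, a layer 5 transcription factor, rose in the whole library (1.16, adjusted p 0.00191), over all excitatory neurons (1.27, adjusted p 0.00870), in L5 IT (0.74, adjusted p 0.00115) and in L5 ET neurons (1.25, adjusted p 9.83e-08). Cdh8, a cadherin, rose in L5 IT (0.57, adjusted p 0.00925) and L6 CT neurons (0.76, adjusted p 0.0121). Another 4 genes of the list rose in 1 type each (Etv5, Lmo4, Rorb and Slc17a6) and 2 fell in 1 type each (Bcl6 and Cdh6). Where in the cortex each piece was taken is not stated in the labels used here, and its part in the results for guidance genes was not tested.

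The clusters found almost only in pregnant mice carried guidance genes at levels of their own, described here without a test, for genes chosen after their values were seen, in CPM of the cluster's own UMIs in pregnant mice 1 and 2. Cluster 30, with 34 and 40 nuclei, had Epha6 at 2239.6 and 2412 CPM and Robo1 at 1113 and 1224 CPM. Cluster 31, with 144 and 235 nuclei and Slc17a6, a glutamate transporter gene, among its leading genes, had Plxna4 at 1095 and 1129 CPM and Unc5d at 1195 and 1372 CPM. Robo1 and Robo2 were low there, at 26.1 and 19.6 CPM and 33.9 and 42.9 CPM. Cluster 28, with 235 and 152 nuclei, had Robo3 at 169 and 142 CPM. Cluster 27, with 200 and 161 nuclei and L5/6 NP as its nearest marker list, had Dcc at 292 and 271 CPM, where L5/6 NP neurons had a mean of 5265 CPM.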

How the data were processed

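Whole-number UMI counts per gene and nucleus were deposited by the authors, made with Cell Ranger 10.0.0 per the file headers and the submitters' processing notes, which also name GRCm39. Free RNA was not subtracted here. Nuclei with at least 500 genes and at most 5% mitochondrial UMIs were kept, and the top 5% of doublet scores per library were left out. Scaling to 10000, 2000 variable genes without the guidance genes, 40 components, 20 neighbours and Leiden resolution 1 (scanpy 1.11.5) gave 32 clusters, 24 of them named from 32 marker lists. Naming thresholds were set after the clusters were seen. A name means resemblance by markers.

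Raw counts were summed per library and type and tested with edgeR 4.0.16 (quasi-likelihood, robust, TMM, filterByExpr at 10 counts, p-values adjusted by Benjamini-Hochberg within each type). With 2 mice per group, p-values weigh the group difference against a spread between mice that edgeR estimates partly from other genes. In simulated counts, 32.7% of genes changed 1.5-fold and 70.8% changed 2-fold were called in L5 ET neurons, and 17.8% and 75.5% in L5/6 NP neurons. The simulated spread depended on a gene's level alone, so differences in spread between genes of like level were not simulated. DESeq2 1.42.0 and other choices are alternatives. The rule named every called member, every library's values for up to 4 per sum, the highest type of members reaching 20 CPM, and set ligand and receptor pairs. Members and lists were chosen with earlier results of these data known.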

Additional observations from a re-analysis of the deposited data

Results flagged for a closer look

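The pregnancy effect of 61 guidance results differed between groups of cells by a test of the difference itself (edgeR interaction with the mouse as block, adjusted p below 0.05 over all genes). They were 58 of 869 gene and cell type pairs, beside 0.945% of all pairs, and 3 of 63 genes between excitatory and inhibitory neurons, beside 0.968% of all genes. Values are differences of log2 fold changes, pregnant over non-pregnant, in a type minus that in the sum of the other tested types of its class, or in excitatory minus inhibitory neurons. Excitatory minus inhibitory neurons gave 0.90 for Sema3c, 0.69 for Sema3e and 1.18 for Sema4g. For L2/3 IT neurons the difference was 0.67 for Plxnd1 and 0.84 for Ntn4 on the positive side, and -1.92 for Sema5b, -0.41 for Plxna2, -0.43 for Slit3, -0.46 for Sema6d, -0.48 for Ephb1, -0.38 for Unc5c, -0.39 for Epha6 and -0.45 for Slit1 on the negative side. For L4/5 IT neurons the difference was 0.54 for Epha3 and 0.44 for Unc5d on the positive side, and -0.60 for Epha7 and -0.56 for Unc5c on the negative side. For L5 IT neurons the difference was 0.36 for Unc5d, 0.41 for Epha7, 0.29 for Epha4, 0.37 for Epha6 and 0.26 for Plxna2 on the positive side, and -1.60 for Nrp1, -0.89 for Sema3e, -1.71 for Sema5a, -0.51 for Ephb2, -0.25 for Sema6d and -1.56 for Sema3d on the negative side. For L5 ET neurons the difference was 0.61 for Plxna4, 0.71 for Slit2, 0.49 for Slit3, 0.62 for Robo3, 0.35 for Unc5c, 0.44 for Epha10, 1.44 for Nrp2 and 0.45 for Efnb2 on the positive side, and -0.98 for Sema3e, -0.47 for Nrp1 and -0.60 for Sema3c on the negative side. For L5/6 NP neurons the difference was 1.36 for Epha3, 1.89 for Ephb1, 0.80 for Ephb2, 0.61 for Unc5c, 0.83 for Epha6 and 0.80 for Sema5b on the positive side, and -1.16 for Sema3e, -0.77 for Epha7 and -0.60 for Robo1 on the negative side. For L6 IT neurons the difference was 0.62 for Unc5d and 0.54 for Epha6 on the positive side, and -1.14 for Nrp1 and -1.0 for Sema5b on the negative side. For L6 CT neurons the difference was 1.75 for Nrp2, 0.70 for Efnb2 and 0.36 for Epha5 on the positive side, and -0.79 for Epha7, -0.60 for Nrp1, -2.56 for Ntn1 and -0.36 for Efna5 on the negative side. Oligodendrocytes gave -0.86 for Ephb1 and Pvalb neurons -0.58 for Sema6d. Several large differences belong to genes at low levels. Means were 1.80 CPM for Ntn1 in L6 CT, 3.52 CPM for Sema5a and 3.25 CPM for Sema3d in L5 IT, and 3.34 CPM for Sema5b in L2/3 IT neurons. The make-up of the sums differed between the groups, and its part in these differences was not tested.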

How the results depend on the processing

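None of the 22 called results changed sign under the alternatives run for it, and signs of other results were not followed. The groups did not overlap for any of the 22, so with 1 mouse left out the sign was nearly fixed in advance. Of the 275 values of the 22 called results under alternatives, 201 kept their call and 74 did not, with 17 of 22 calls lost without pregnant mouse 1, 14 without pregnant mouse 2, 4 without non-pregnant mouse 1, 3 without non-pregnant mouse 2, 10 of 19 with equal nuclei per fine cluster and 9 of 20 with DESeq2; the cause was not tested. Leaving out 1 mouse gave 0 to 10 calls in the whole library, 0 to 17 in excitatory and 0 to 5 in inhibitory neurons, 11 to 81 cell type pairs, 0 to 15 differences between excitatory and inhibitory neurons and 32 to 100 differences from the class. DESeq2 called 7 genes in the whole library (3 rose, 4 fell) and 9 in excitatory neurons (5 rose, 4 fell), against 2 each (0 rose, 2 fell), and 16 pairs, 7 of them among the 18. With no filter on low counts the counts were 4 in the whole library, 10 in excitatory and 2 in inhibitory neurons, 60 pairs, 15 differences between excitatory and inhibitory neurons and 99 from the class. Pairs numbered 32 with the pregnant-limited clusters added, 34 with no doublet filter and 11 with equal nuclei, where excitatory neurons had 1 call. Clustering with the guidance genes gave 6 differences between excitatory and inhibitory neurons. The replicate numbers did not pair the mice (correlations of -0.16 to 0.10), and the replicate block gave 5 calls in the whole library, 10 in excitatory neurons, 0 in inhibitory neurons and 31 pairs. A crossed pairing, chosen after seeing the data, gave 0, 2, 5 and 33. The interaction fits already hold the mouse as block. Sums ran from 594632 to 35768951 UMIs, and the part of depth in the calls was not tested. All counts in this section are of guidance genes, and the share of all genes called under each alternative is not given.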
